A study of Mus musculus with 10 samples.

Results

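Accessible chromatin was examined around the 10 genes Fos, Fosb, Fosl1, Fosl2, Jun, Junb, Jund, Atf3, Batf and Batf3 in neural stem cells, as the 158 regions, of 137454 in the genome, with a peak summit inside a gene or within 50 kb of it. The Fos and Jun genes encode the subunits of AP-1, a dimeric leucine-zipper factor that binds a short palindrome in promoters and enhancers. Jun proteins pair with themselves or with a Fos protein, while Fos proteins need a partner. Fos, Fosb, Jun and Junb are classical immediate early genes, switched on within minutes when growth factors activate the ERK and JNK kinases, whereas Jund is expressed more steadily and Fosl1 and Fosl2 follow later. Atf3, Batf and Batf3 encode related leucine-zipper proteins that pair with Jun proteins. Growth factor signalling of this kind keeps neural stem cells cycling in culture.

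The data are ATAC-seq peaks, sites of open chromatin where a transposase could cut. They come from cultured neural stem cells that were derived from the brain subependymal zone (SEZ) of 10-week mice. The cells were wild type (WT) or carried a mutation of Cdkn1b (p27KO), the gene of the cyclin-dependent kinase inhibitor p27. In the proliferating condition (PRO), neurospheres received EGF (20 ng/ml) and FGF (10 ng/ml) for 3 days by the labels, although the study's text also names a longer time. For the onset of differentiation (DIFF), cells spent 2 days on Matrigel with FGF, followed by 24 h in 2% serum with no mitogen, so that substrate, serum and mitogens differed together between the conditions. Each condition had 3 WT and 2 p27KO libraries, 10 in all, of 50000 cells each. The labels call them biological replicates without saying which mice they came from, and they do not describe the p27 mutation further.

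Regions were formed by merging the 10 deposited peak lists on GRCm38. Of the 158, 19 lay within 3 kb of a start site of the member itself, 51 within 3 kb of a start site of another gene and 88 were distal. A region near a member is assigned by distance alone, and 8 regions lay in the windows of both Atf3 and Batf3, which are neighbours. The windows held 22 regions for Junb, 21 for Batf3, 20 each for Fosb, Jund and Atf3, 17 for Fos, 16 for Fosl1, 12 each for Jun and Batf, and 6 for Fosl2.

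The lists held 57534 to 91801 peaks. WT DIFF replicate 3 stood apart from its group, with 88738 peaks against 61783 and 57534 in the other two, and it also had 111 member regions with a peak against 90 and 75. Read numbers are not part of the lists, and the background pileup recovered from them was 2.52 to 3.72 over the libraries. Absence of a peak therefore means only that MACS2 called none from that library's reads, and in bulk libraries a change in the mix of cells and a change within each cell cannot be told apart. A Cdkn1b promoter peak was listed for 6 of 6 WT libraries and for 0 of 4 labelled p27KO, as the titles and genotypes have it, although their description line says WT. Promoters of all 8 listed neural stem and progenitor markers had a peak in every library. Among markers of other cells, 3 of 6 microglial, 3 of 5 endothelial, 3 of 5 oligodendrocyte, 1 of 5 neuronal, 1 of 4 ependymal and 0 of 4 pericyte and fibroblast promoters had no peak in any library.

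Sequences were read from the GRCm38 genome to show where the known control elements of these genes lie. The promoters of Fos and Fosb are shown because each holds a CArG box, the element bound by serum response factor. The window runs from 350 to 51 bases upstream of the start site, 5′ to 3′ on the gene's strand, and capitals mark the CArG box and the CRE half-site TGACG, searched on both strands, the core of the element bound by CREB. The Fos window is chr12:85473540-85473839 on the plus strand and the Fosb window is chr7:19310102-19310401 on the minus strand.
Fos promoter: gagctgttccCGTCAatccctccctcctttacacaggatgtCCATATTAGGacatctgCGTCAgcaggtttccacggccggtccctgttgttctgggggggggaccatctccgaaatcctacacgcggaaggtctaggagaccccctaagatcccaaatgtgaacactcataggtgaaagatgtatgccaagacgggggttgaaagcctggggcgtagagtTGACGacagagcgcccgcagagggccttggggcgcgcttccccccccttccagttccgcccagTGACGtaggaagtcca
Fosb promoter: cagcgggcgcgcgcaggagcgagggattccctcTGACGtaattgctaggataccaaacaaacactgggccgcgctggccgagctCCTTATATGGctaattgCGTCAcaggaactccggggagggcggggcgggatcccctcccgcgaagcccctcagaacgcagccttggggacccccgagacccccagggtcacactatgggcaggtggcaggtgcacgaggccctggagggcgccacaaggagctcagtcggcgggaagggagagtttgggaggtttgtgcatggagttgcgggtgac
The CArG box began 309 bases upstream of the Fos start site and 266 bases upstream of that of Fosb, and a CRE half-site began 66 bases upstream of Fos. Over the same window of 21938 protein-coding genes, 1.65% held a CArG box and 17.4% a CRE half-site. The windows of the other 8 members, upstream of their most upstream start site, held no CArG box.

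Some, not all, of the distal regions where the change between PRO and DIFF, described further on, was called (9 in WT and 5 in p27KO) are shown. Each is the plus strand of GRCm38 from 100 bases before to 99 bases after the summit. Capitals mark the AP-1 motif TGANTCA, the octamer TGACNTCA, which Jun and ATF proteins share, the E-box CAGCTG, the SOX motif ACAATG or the CRE half-site TGACG, each searched on both strands. The half-site overlaps the octamer when N is G. The windows are chr1:191254543-191254742 for Atf3, chr12:85659393-85659592 for Batf, chr1:191068483-191068682 for Batf3, and chr8:70682276-70682475 and chr8:70667147-70667346 for Jund.
Atf3 36.6 kb upstream: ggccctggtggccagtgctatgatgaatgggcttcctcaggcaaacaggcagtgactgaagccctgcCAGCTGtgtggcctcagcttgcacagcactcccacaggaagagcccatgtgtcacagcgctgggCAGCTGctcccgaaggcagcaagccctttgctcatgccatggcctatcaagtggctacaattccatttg
Batf 27.2 kb upstream: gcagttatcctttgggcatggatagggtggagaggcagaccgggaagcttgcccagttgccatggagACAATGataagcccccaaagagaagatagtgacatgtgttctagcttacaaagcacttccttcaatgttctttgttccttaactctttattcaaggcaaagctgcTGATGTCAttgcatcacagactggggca
Batf3 29.3 kb upstream: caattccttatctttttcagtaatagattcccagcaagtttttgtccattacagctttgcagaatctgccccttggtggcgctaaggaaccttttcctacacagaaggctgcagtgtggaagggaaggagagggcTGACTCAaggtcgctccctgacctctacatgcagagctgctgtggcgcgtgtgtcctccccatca
Jund 16.6 kb upstream: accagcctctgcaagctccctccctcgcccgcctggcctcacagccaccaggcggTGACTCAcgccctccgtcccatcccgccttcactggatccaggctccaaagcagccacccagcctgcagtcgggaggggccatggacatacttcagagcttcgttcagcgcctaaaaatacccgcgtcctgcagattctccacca
Jund 31.7 kb upstream: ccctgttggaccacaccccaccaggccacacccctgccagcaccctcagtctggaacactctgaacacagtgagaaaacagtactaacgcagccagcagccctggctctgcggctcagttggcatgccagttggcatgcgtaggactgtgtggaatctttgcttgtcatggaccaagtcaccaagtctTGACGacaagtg
The first 4 of these were lower in DIFF and the last was higher. Each window shown held a marked motif, as did that 14.1 kb downstream of Jun, not shown. The other called distal regions held none: 24.5 kb upstream of Atf3, 33.1 kb upstream of Fosl2, 11.2 kb upstream of Jund and 52.9 kb downstream of Jun. Of these, the Atf3, Fosl2 and Jund regions were higher in DIFF. Only the Batf3 and Jund 16.6 kb windows held TGANTCA, and they were the only 2 with it among the 14 regions called in either genotype. The motif was in 8.34% of the 70509 tested regions whose sequence was read.

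The promoters of 9 of the 10 genes were open in every library, and Batf had no peak within 3 kb of a start site in any. The values are MACS2 fold enrichments, the pileup at the summit over the local background of the same library. Promoter levels of Fosl2, which encodes Fra-2, were the highest among the Fos genes, at 9.79, 9.43 and 9.38 in WT PRO and 9.05, 8.33 and 9.52 in WT DIFF. Fosl1, which encodes Fra-1, had the lowest mean of the 9 in each of the 4 groups, at 5.26, 5.93 and 4.34 in WT PRO and 3.79, 4.63 and 4.87 in WT DIFF. The Fosl1 and Fosl2 ranges did not overlap in any group. In WT PRO the order of the means was Fosl2 (9.53), Atf3 (8.41), Jun (7.90), Jund (7.49), Fos (6.68), Fosb (6.67), Batf3 (6.11), Junb (5.50) and Fosl1 (5.18), with an SD of 0.12 to 0.80 (n = 3). The ranges of neighbours in that order overlapped, except those of Fosl2 and Atf3 and of Batf3 and Junb.

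The Fos promoter, the prototype immediate early promoter, was at 6.49, 6.81 and 6.74 in WT PRO and at 5.31, 7.44 and 7.39 in WT DIFF. In p27KO it was at 7.78 and 6.89 in PRO and 6.70 and 9.11 in DIFF, so that PRO and DIFF overlapped in both genotypes. Fosb, whose product resembles that of Fos, was at 6.67, 7.13 and 6.23 in WT PRO and 6.75, 7.11 and 6.52 in WT DIFF, again overlapping. Both promoters thus carried a peak 24 h after mitogen withdrawal as they did with EGF and FGF.

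**Figure D1:**
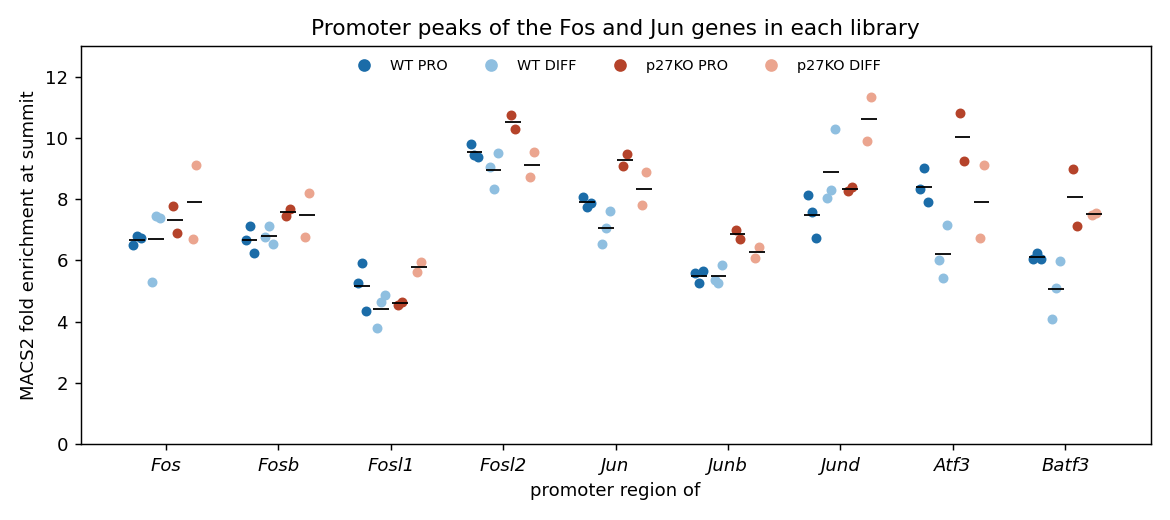
MACS2 fold enrichment at the promoter summit of 9 genes; each point is a library, coloured by group, and the black line is the group mean. Fosl2 sat between 8.33 and 10.73 and Fosl1 between 3.79 and 5.96. Jund is the promoter called higher by rank in DIFF, in WT only and close to the threshold.

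Fold enrichments also depend on each library's background, so changes were tested on ranks. Each region was ranked by fold enrichment within its library, and ranks were turned into normal scores (1 unit is 1 SD of a normal distribution). Then limma compared the group means, with Benjamini-Hochberg adjustment over all 14979 promoters or all 70627 regions that 5 or more libraries shared. Regions without a peak were tied at the lowest rank. This tie scored -1.15 in WT DIFF replicate 1 and -1.68 in WT PRO replicate 1, so differences at weak regions also depend on list length. At promoters, 554 of 14979 were called between WT PRO and WT DIFF (3.7%, with 1.54% lower and 2.16% higher) and 237 in p27KO (1.58%, with 0.708% lower and 0.875% higher). These counts rest on single libraries: leaving out 1 gave 243 (without WT DIFF replicate 2) to 667 (without WT DIFF replicate 3) in WT and 67 (without p27KO PRO replicate 2) to 264 in p27KO, and with the spread estimated over all regions they were 145 and 72. Among the 9 member promoters, 1 was called in WT and 0 in p27KO by limma, where 2, Jund and Fosl1, had an unadjusted p under 0.05. The p27KO difference of Fosl1 was 0.60 ± 0.21 (limma unadjusted p = 0.0124, adjusted p = 0.188), with 0.08 ± 0.17 in WT.

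The called promoter was that of Jund (chr8:70698348-70700309), whose product is the Jun protein present in resting cells. Its fold enrichment was 8.15, 7.59 and 6.74 in WT PRO and 8.05, 8.30 and 10.28 in WT DIFF. Its place in the list of each library separated the conditions fully, at percentiles 68.9, 64.1 and 61.8 in WT PRO and 74.9, 77.2 and 82.7 in WT DIFF. In p27KO it stood at percentiles 71.6 and 72.0 in PRO and 81.1 and 81.4 in DIFF. The normal score rose by 0.53 ± 0.13 (SE, limma adjusted p = 0.0447, n = 3 against 3) in WT. In p27KO the difference was 0.50 ± 0.16 and was not called (adjusted p = 0.155, n = 2 against 2). The WT call lay close to the threshold: it was lost under 14 of the 16 alternatives tried for single promoters, among them each that left out 1 of the 10 libraries, and with the spread estimated over all regions the adjusted p was 0.173.

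The other 8 promoters were not called. Their WT differences ran from -0.18 ± 0.13 for Atf3 to 0.31 ± 0.16 for Fosb, against a median of 0.12 over all promoters, with adjusted p from 0.253 for Junb to 0.965 for Batf3. Jun, the main partner of the Fos proteins, was at 8.08, 7.75 and 7.87 in WT PRO and 6.54, 7.06 and 7.62 in WT DIFF. All WT DIFF values of Jun lay below the WT PRO values, yet its rank difference was 0.11 ± 0.14 (adjusted p = 0.67). The median fold enrichment over all peaks of a library was also lower in WT DIFF, at 5.08 to 5.31 against 5.48 to 5.89 in WT PRO. Junb, often an antagonist of Jun, was at 5.59, 5.26 and 5.64 in WT PRO and 5.35, 5.25 and 5.85 in WT DIFF, with overlapping ranges.

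The promoter of Atf3, a stress-induced gene, differed between scales. The region (chr1:191182403-191183849) lies at an internal start site of the gene. It was at 8.32, 9.02 and 7.89 in WT PRO and 6.01, 5.41 and 7.16 in WT DIFF, and at 10.82 and 9.26 against 6.73 and 9.10 in p27KO. Every DIFF value was below every PRO value of its genotype. Ranked by fold enrichment the difference was not called (WT adjusted p = 0.443), but ranked by the deposited -log10 p-value it was -0.6 in WT (limma adjusted p = 0.0135) and -0.6 in p27KO (adjusted p = 0.0468). Batf3, which encodes a partner of Jun in immune cells, was at 6.06, 6.24 and 6.03 in WT PRO and 4.08, 5.09 and 5.99 in WT DIFF, with a rank difference of 0.02 ± 0.16.

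Across all 108 member regions tested, 13 were called between WT PRO and WT DIFF, 5 lower and 8 higher. This was 12% of the members against 19.2% of all regions (10.1% lower and 9.15% higher in the genome, 4.63% and 7.41% among the members). In p27KO 6 were called, 3 lower and 3 higher, or 5.56% against 12.3% in the genome (6.48% lower and 5.83% higher). The shares among the members were thus not above the background. The median WT difference was 0.08 over the members and 0.03 over all regions. No region around Fos, Fosb, Fosl1 or Junb was called in any comparison, of 10, 18, 9 and 16 tested, although 2, 3, 1 and 2 of them had an unadjusted p under 0.05 in WT. Without WT DIFF replicate 3, 10 member regions were called in WT, beside 16.9% of all regions. Without WT PRO replicate 1, WT PRO replicate 2 or WT DIFF replicate 1 the member counts were 7, 6 and 8, beside 14.8, 14.5 and 14.4% of all regions. In p27KO, leaving out 1 library leaves a single library in a group, so no count of member regions is given.

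**Figure D2:**
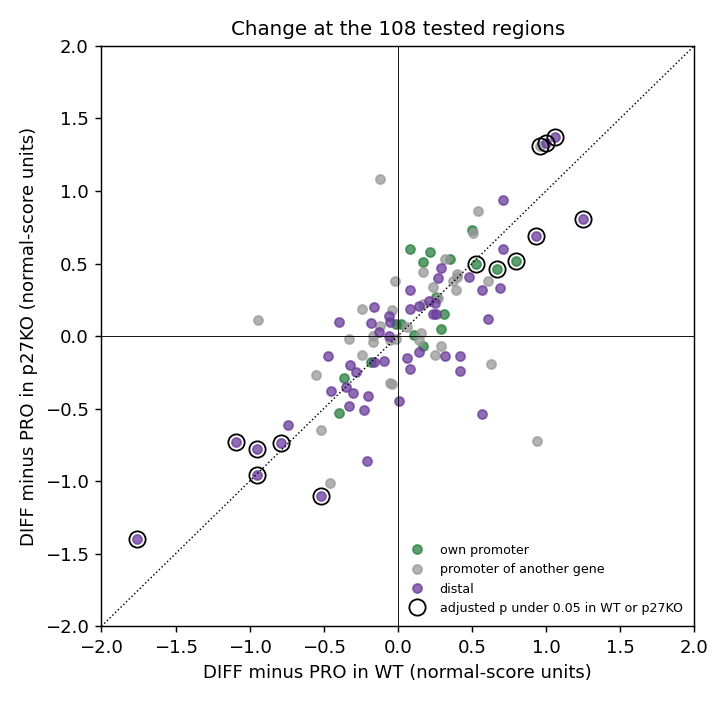
Difference between DIFF and PRO in WT (x) and p27KO (y), in normal-score units, for the 108 tested regions, coloured by class; circled regions had an adjusted p under 0.05 in either genotype and the dotted line marks equal values. The 14 circled regions lie in the lower left and upper right quadrants.

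The 14 regions called in either genotype had the same sign of score difference in both, and 5 were called in both. The mean percentile in p27KO did not follow the score at the weak region 1.8 kb downstream of the Jund start site (10.9 in PRO, 9.3 in DIFF). The same held for the weak region in the Jun coding exon (1.5 in PRO, 1.0 in DIFF). The interaction of genotype and condition called 0 of the 108 by limma (0 of 70627 in the genome, 0%), with 2 at an unadjusted p under 0.05. The 13 regions called in WT and the 6 called in p27KO are described below by gene, with the percentile of the peak in each library's list.

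The region with the largest difference lay 36.6 kb upstream of the first start site of Atf3, in intergenic DNA at chr1:191254161-191254817. It stood at percentiles 82.1, 77.2 and 89.5 in WT PRO, had no peak in WT DIFF replicates 1 and 2 and was at percentile 47.3 in WT DIFF replicate 3. The p27KO values were 87.9 and 82.4 in PRO and 26.7 and 26.3 in DIFF. PRO and DIFF did not overlap in either genotype, and the normal score fell by 1.76 ± 0.24 in WT (limma adjusted p = 0.000564) and by 1.40 ± 0.29 in p27KO (adjusted p = 0.0102). Its WT call held under all 15 alternatives tried for single regions, the p27KO call under 13. Another region 24.5 kb upstream of Atf3 went the other way in WT, with a peak in WT PRO replicate 3 alone (percentile 10.0) and in WT DIFF replicates 2 and 3 (32.2 and 47.3), a difference of 0.93 ± 0.28 (adjusted p = 0.0376). In p27KO it was at percentiles 37.0 and 27.2 in PRO and 39.4 and 52.2 in DIFF and was not called (adjusted p = 0.235), and 7 of 14 alternatives lost the WT call.

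The called regions of the Batf genes were lower in DIFF. Batf encodes a partner of Jun known from lymphocytes, and its only called region, 27.2 kb upstream, stood at percentiles 50.3, 50.3 and 48.7 in WT PRO and had a peak in 1 of 3 WT DIFF libraries, replicate 3, at 20.5. In p27KO it was at 68.3 and 56.6 in PRO and had 1 peak in DIFF, at 31.1. The score fell by 0.95 ± 0.21 in WT (limma adjusted p = 0.00917) and by 0.96 ± 0.26 in p27KO (adjusted p = 0.0332). The Batf3 region with the AP-1 motif, in an intron of Nsl1 29.3 kb upstream, was at percentiles 47.3, 54.5 and 59.7 in WT PRO and again had a WT DIFF peak in replicate 3 only, at 34.3. It fell by 0.95 ± 0.23 in WT (adjusted p = 0.0126), and the p27KO difference of -0.78 ± 0.28 was not called (adjusted p = 0.0957).

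**Figure D3:**
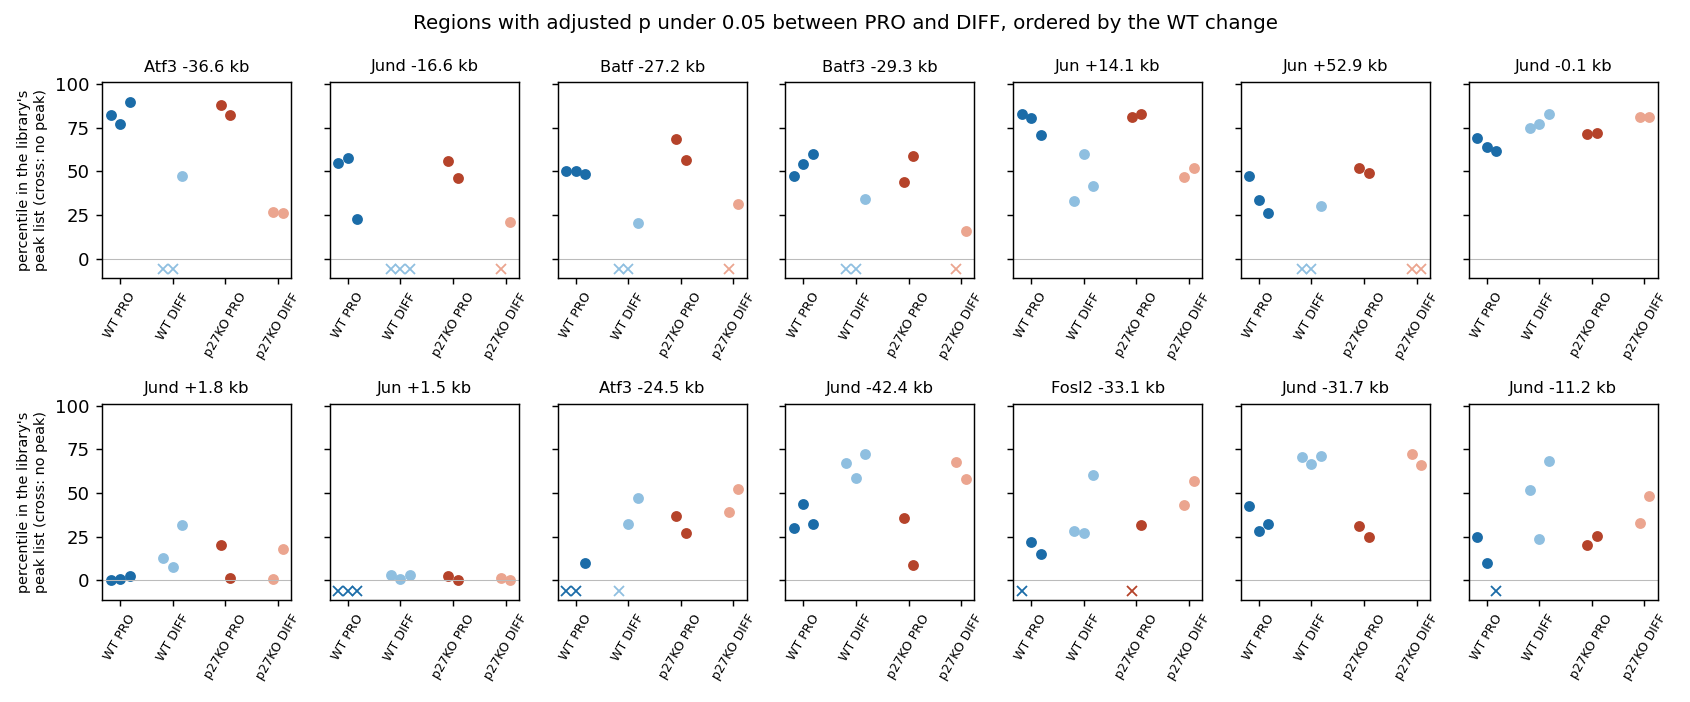
Percentile of the peak in the library's own list for the 14 regions called between PRO and DIFF in WT or p27KO, ordered by the WT difference; each point is a library and a cross marks a library without a peak. Atf3 36.6 kb upstream stood between percentiles 77.2 and 89.5 in the 5 PRO libraries and at 47.3 or lower, or without a peak, in the 5 DIFF libraries.

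Around Jun, 2 regions downstream of the gene and 1 in its coding exon were called. The region 14.1 kb downstream, in an intron of Gm12703 (chr4:95037681-95038728), had a peak in all 10 libraries, at percentiles 82.8, 80.6 and 70.8 in WT PRO and 33.3, 59.8 and 41.4 in WT DIFF. The p27KO libraries had 81.1 and 82.6 in PRO and 46.9 and 52.2 in DIFF, without overlap in either genotype. It fell by 0.79 ± 0.24 in WT (limma adjusted p = 0.041), while the p27KO difference of -0.74 ± 0.30 was not called (adjusted p = 0.135). The WT call was lost under 10 of 15 alternatives.

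The other downstream Jun region, 52.9 kb from the start site in an intron of Gm12694 (chr4:94999262-94999444), was called in p27KO only. It stood at percentiles 52.1 and 49.2 in p27KO PRO and had no peak in p27KO DIFF, a fall by 1.10 ± 0.23 (limma adjusted p = 0.0105). In WT, 3 of 3 PRO and 1 of 3 DIFF libraries had a peak, and the difference was -0.52 ± 0.19 (adjusted p = 0.0786). The difference between the genotypes was not called (limma interaction, unadjusted p = 0.0777). In the coding exon of Jun, a weak peak was present in 3 of 3 WT DIFF and 0 of 3 WT PRO libraries, a difference of 0.80 ± 0.22 (adjusted p = 0.0276). It was the only member region opened in WT, but its fold enrichments of 2.87, 2.60 and 2.75 lay at percentile 3.3 or lower of their lists and it also had a peak in both p27KO PRO libraries.

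Fosl2 had 3 tested regions, and 1 of them, in intergenic DNA 33.1 kb upstream (chr5:32102472-32102821), was called in both genotypes. It was without a peak in WT PRO replicate 1, at percentiles 21.9 and 15.4 in the other 2 and at 28.2, 27.1 and 60.2 in WT DIFF. It also lacked a peak in p27KO PRO replicate 1, and stood at 31.9 in p27KO PRO replicate 2 and at 43.4 and 57.2 in p27KO DIFF. The score rose by 1.00 ± 0.31 in WT (limma adjusted p = 0.0452) and by 1.33 ± 0.38 in p27KO (adjusted p = 0.0449). Both calls lay close to the threshold, and 8 and 9 of 15 alternatives lost them.

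Jund had 6 of its 14 tested regions called in WT, 5 higher and 1 lower, and 2 of 14 called in p27KO, both higher. Of all regions, 19.2% were called in WT (9.15% higher) and 12.3% in p27KO (5.83% higher). The intergenic region 31.7 kb upstream (chr8:70667170-70667496) had a peak in all 10 libraries, at percentiles 42.7, 28.2 and 32.4 in WT PRO and 70.6, 66.6 and 71.1 in WT DIFF. In p27KO it was at 31.1 and 24.9 in PRO and 72.3 and 66.1 in DIFF. Every DIFF library was above every PRO library, and the score rose by 1.06 ± 0.18 in WT (limma adjusted p = 0.00202) and by 1.37 ± 0.22 in p27KO (adjusted p = 0.00256), under all 15 alternatives in both genotypes.

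The second Jund region called in both genotypes lay 42.4 kb upstream (chr8:70656204-70656974), in an intron of Pgpep1 near an annotated start site of that gene. It was at percentiles 29.8, 43.7 and 32.3 in WT PRO and 67.5, 58.4 and 72.2 in WT DIFF, and at 35.6 and 8.7 in p27KO PRO and 67.7 and 57.9 in p27KO DIFF, without overlap. It rose by 0.96 ± 0.20 in WT (limma adjusted p = 0.00596) and by 1.31 ± 0.24 in p27KO (adjusted p = 0.00522). The region 11.2 kb upstream (chr8:70687488-70688034) was at percentiles 25 and 10.0 with no peak in WT PRO replicate 3, and at 51.6, 24.0 and 68.6 in WT DIFF. Here 1 WT DIFF library lay below the highest WT PRO library by percentile but not by score. Percentile 24.0 scored -0.24 in WT DIFF replicate 2, and percentile 25 scored -0.8 in WT PRO replicate 1. The score rose by 1.25 ± 0.24 in WT (adjusted p = 0.00395). The p27KO difference of 0.81 ± 0.29 was not called (percentiles 20.2 and 25.3 in PRO, 32.6 and 48.3 in DIFF, adjusted p = 0.0981).

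Between these, the region 16.6 kb upstream of Jund with the AP-1 motif fell in WT. It was at percentiles 54.6, 57.5 and 22.8 in WT PRO and had no peak in any WT DIFF library, a difference of -1.09 ± 0.28 (limma adjusted p = 0.0178). In p27KO 2 of 2 PRO libraries and 1 of 2 DIFF libraries had a peak, with a difference of -0.73 ± 0.34 (adjusted p = 0.202). The remaining called region, 1.8 kb downstream of the start site and also near Iqcn, lay at the bottom of the lists, at percentiles 0.5, 0.6 and 2.5 in WT PRO and 12.8, 7.4 and 31.8 in WT DIFF (0.67 ± 0.17, adjusted p = 0.0165). In p27KO its percentiles of 20.4 and 1.5 in PRO and 0.6 and 18.1 in DIFF overlapped. Its scores did not (-1.16 and -1.31 in PRO, -0.8 and -0.74 in DIFF), and the region was not called (0.46 ± 0.21, adjusted p = 0.183). The WT call was lost under 5 of 15 alternatives.

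**Figure D4:**
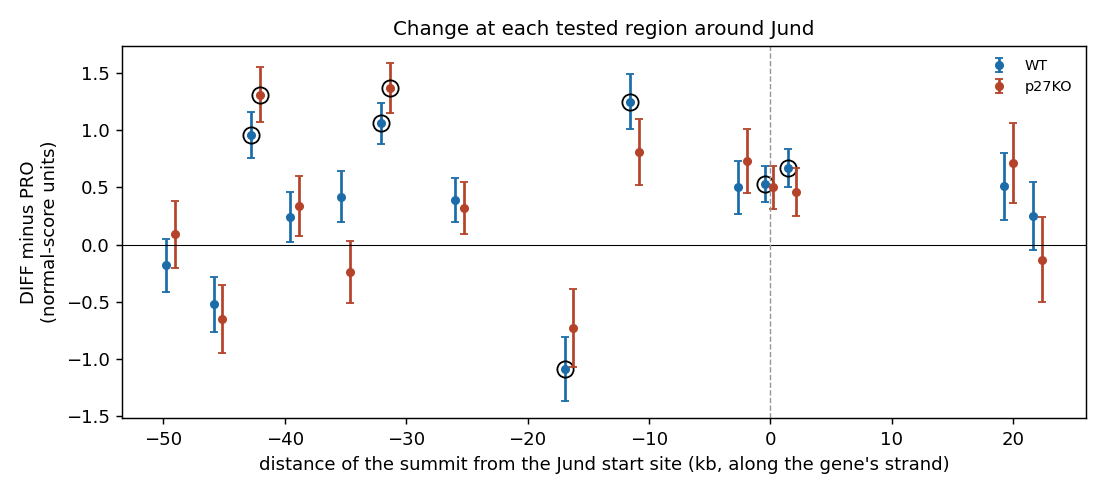
Difference between DIFF and PRO, in normal-score units with its SE, at the 14 tested regions around Jund against the distance of the summit from the start site in kb, for WT and p27KO; black circles mark an adjusted p under 0.05. Regions 42.4, 31.7 and 11.2 kb upstream rose in WT and the region 16.6 kb upstream fell.

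Presence of a peak gave a second reading. Of the 158 regions, 127 had a peak in at least 2 libraries, of which 59 (46.5%) had one in all 10, against 38.2% of such regions in the genome. A peak in every PRO and no DIFF library was seen at 6 member regions in WT and 10 in p27KO. These are 4.72% and 7.87% of the 127, against 4.32% and 10.9% in the genome, where 2 libraries per group make the p27KO criterion easier to meet. The opposite pattern was seen at 1 region in WT (0.787%, against 1.86%) and 0 in p27KO (against 3.32%). Single libraries moved these counts: the WT count of 6 became 15 without WT DIFF replicate 3 and 10 without WT PRO replicate 2, and the p27KO count of 10 became 26 without DIFF replicate 2 and 21 without PRO replicate 2. The share over all regions is not given for these subsets, so the moved counts say nothing particular about the members.

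The 2 regions lost in both genotypes lay 28.7 kb upstream of Fosb and 7.3 kb upstream of Junb. The Fosb region was at percentiles 14.1, 3.3 and 13 in WT PRO and 20.2 and 38.5 in p27KO PRO. The Junb region was at 7.6, 15.3 and 2.8 in WT PRO and 25.4 and 24.8 in p27KO PRO. Both were weak peaks near the bottom of the WT lists, and neither was called by rank. The rank test could hardly call such a loss in WT, so the missing call says little about it. The Junb region scored -1.19, -1.01 and -1.17 in WT PRO, and its missing peak scored -1.15, -1.07 and -1.76 in WT DIFF. The other 4 WT regions lay 56.0 kb downstream of Fosb, 48.7 kb downstream of Fos, 22.4 kb downstream of Batf3 and 16.6 kb upstream of Jund. The other 8 p27KO regions lay 46.7 kb upstream and 11.2 kb downstream of Batf3, 16.4 kb downstream of Batf, 17.5 kb upstream of Fosl1, 52.9 and 6.9 kb downstream of Jun, 45.5 kb upstream of Jund and 17.1 kb upstream of Junb. The first, near a start site of Tatdn3, went the other way in WT, with a peak in 1 of 3 PRO and 2 of 3 DIFF libraries (0.94 ± 0.43, limma adjusted p = 0.154). Those 11.2 kb downstream of Batf3 and 17.1 kb upstream of Junb had no WT peak. In p27KO PRO they were weak, at percentiles 1.4 and 13.5, and 3.1 and 13.7.

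Genotype was compared within each condition. Of the 108 member regions, limma called 0 between p27KO and WT at DIFF (0.0156% of all regions called) and 0 at PRO (0.034%), with 2 and 1 at an unadjusted p under 0.05. Of the 9 promoters it called 0 at DIFF (0.0334% of all) and 0 at PRO (0.0401%), with 1 and 0 at an unadjusted p under 0.05, and the interaction called 0 (0% of all) with 0 at an unadjusted p. The promoter differences ran from -0.16 to 0.42 at DIFF and from -0.24 to 0.36 at PRO. The largest was Batf3, whose fold enrichments of 8.98 and 7.13 in p27KO PRO exceeded the 6.03 to 6.24 in WT PRO (0.36 ± 0.17, adjusted p = 1.0), and whose 7.47 and 7.55 in p27KO DIFF exceeded the 4.08 to 5.99 in WT DIFF (0.42 ± 0.17, adjusted p = 0.979).

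Genes around the AP-1 pathway were read at their promoters by the same test. None of 13 other dimer partners, among them Atf2, Jdp2 and the small Maf genes, was called in either genotype. Of 18 upstream kinases and factors, Mapk3, which encodes ERK1, was lower in DIFF by 0.73 ± 0.17 in WT (limma adjusted p = 0.0384) and by 0.97 ± 0.21 in p27KO (adjusted p = 0.0412), and the other 17 were not called. Of 14 tested immediate early genes outside the family, 3 were higher in WT and 2 in p27KO, where 2.16% and 0.875% of all promoters were called higher. Klf6, a zinc-finger factor gene, rose by 0.71 ± 0.17 and 0.97 ± 0.20 in WT and p27KO (adjusted p = 0.0383 and 0.0359), and Npas4, an activity-induced gene of neurons, by 0.93 ± 0.22 and 1.24 ± 0.26 (adjusted p = 0.0355 and 0.0371). Ier2 rose by 0.68 ± 0.14 in WT (adjusted p = 0.0204), with 0.16 ± 0.17 in p27KO and no call for the difference between genotypes. The Mapk3, Klf6 and Npas4 calls, with limma adjusted p from 0.0355 to 0.0412, lay close to the threshold. With the spread estimated over all regions, promoter calls fell from 554 to 145 in WT and from 237 to 72 in p27KO. Whether the calls of these genes, Ier2 included, hold under that or the other alternatives was not tested.

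Of 11 tested genes reported as AP-1 targets, 2 were lower in WT and 1 in p27KO, where 1.54% and 0.708% of all promoters were called lower. Spp1, which encodes osteopontin, fell by 1.68 ± 0.22 in WT (limma adjusted p = 0.0011) with a p27KO difference of -1.75 ± 0.27 (adjusted p = 0.00543), and Timp1, a metalloprotease inhibitor gene, fell by 1.28 ± 0.28 in WT (adjusted p = 0.0267), with a p27KO difference of -1.27 ± 0.34 that was not called (adjusted p = 0.0989). The median WT difference was -0.29 for this list, 0.18 for the immediate early genes, 0.22 for the kinases and factors, 0.26 for the dimer partners and 0.17 for the 9 members, beside 0.12 over all promoters. Vim, on the target list, is also on the stem cell marker list. Among marker promoters of other cells, 2 were called in WT, Pecam1 of endothelial cells (lower by 1.35 ± 0.20, limma adjusted p = 0.00292) and P2ry12 of microglia (lower by 0.79 ± 0.15, adjusted p = 0.0142). Pecam1 was also called in p27KO (adjusted p = 0.0046). The median differences in WT and p27KO were -0.85 and -0.88 over the 2 tested endothelial promoters, 0.14 and -0.18 over the 3 microglial ones, and 0.90 and 0.63 over the 3 pericyte and fibroblast ones, of which none was called. In neuronal, ependymal and oligodendrocyte markers the medians lay between 0.05 and 0.32, with no call. The part of these cells in the members' values was not tested. The calls in the target and marker lists, Timp1 among them, were likewise not followed under the alternatives.

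By the correlation of normal scores over the 10 libraries, the promoters most like that of Jund were those of Wdr86 (Pearson r = 0.983), Fscn1 (0.968) and H2-DMa (0.968). These values describe the 10 libraries, which share the 4 groups, and carry no test.

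The sequence bound by AP-1 was then counted in the peaks of each library. The motif TGANTCA lay within 100 bases of the summit in 9.89, 8.94 and 8.79% of the peaks of WT PRO libraries and in 5.88, 5.82 and 6.52% of those of WT DIFF libraries. In p27KO it was in 8.74 and 9.29% in PRO and 6.09 and 5.97% in DIFF. Every DIFF library was below every PRO library in both genotypes. The difference between DIFF and PRO was -3.06 percentage points (exact permutation of libraries within genotype, two-sided p = 0.0167, the smallest that the 120 arrangements allow, lower in 5 of 5 DIFF libraries). The genotypes differed by -0.12 points (exact permutation within condition, two-sided p = 0.68). In the 20000 strongest peaks of each list the difference between DIFF and PRO was -3.08 points, and outside promoters -3.64 points.

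**Figure D5:**
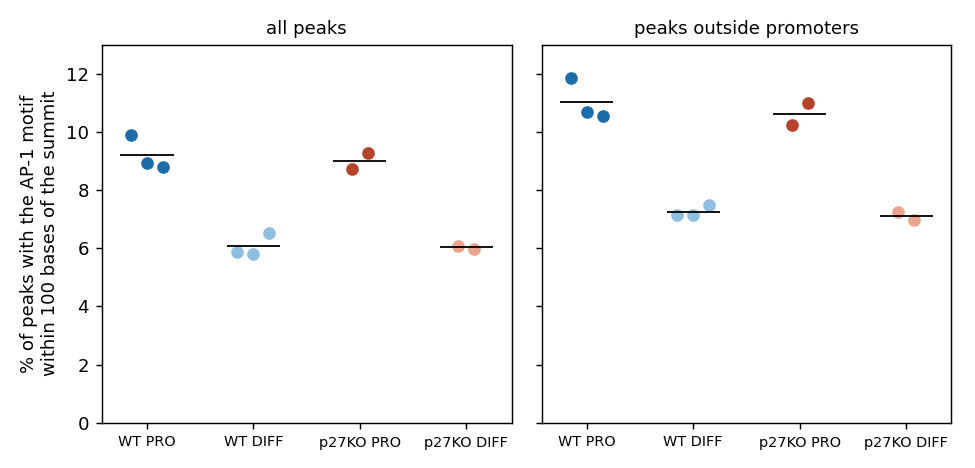
Share of peaks, in %, with TGANTCA within 100 bases of the summit, in all peaks (left) and peaks outside promoters (right); each point is a library and the line is the group mean. PRO libraries sat between 8.74 and 9.89% and DIFF libraries between 5.82 and 6.52% of all peaks.

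Among regions tested by rank, TGANTCA was in 24.6% of the 7103 regions lower in WT DIFF and in 4.36% of the 6461 higher ones, beside 8.34% of all. In p27KO it was in 28.6% of the lower and 4.52% of the higher regions. The median WT difference was -0.36 for regions with the motif and 0.06 for those without, and -0.39 and 0.07 in p27KO. The octamer TGACNTCA followed the same order, in 16.5% of regions lower and 2.03% of those higher in WT, beside 5.57% of all. The E-box CAGCTG was in 34.6% of lower, 16.0% of higher and 21.5% of all regions, and the CRE half-site in 9.78, 7.0 and 11.5%. In the same order, the SOX motif was in 15.82, 11.95 and 11.25%, and the CArG box in 0.97, 1.42 and 1.08%. These shares are descriptions of sequence, and binding was not measured.

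The members' own regions were few in this respect. TGANTCA was in 11 of the 108 tested member regions (10.2%, beside 8.34% of all), among them the Fosl1 and Fosl2 promoters, which had a peak in all 10 libraries and were not called. Of the 11, the regions upstream of Batf3 and Jund shown above were called lower in WT, none was called higher, and the other 9 had WT differences between -0.52 and 0.27. An enhancer annotated in RefSeq as VISTA mm260 (chr12:85454400-85456289) overlapped the region 18.6 kb upstream of Fos, and VISTA mm567 (chr7:19319407-19320266) the region 10.1 kb upstream of Fosb. Both had a peak in all 10 libraries, and their WT differences of 0.08 and -0.13 were not called. The annotation lists both as active in the heart.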

How the data were processed

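The deposited files are 1 MACS2 narrow peak list per library, on GRCm38. Per the study's methods, the authors clipped adapters with Cutadapt, trimmed with Trimmomatic, mapped with Bowtie2, marked duplicates with Picard and called peaks at a false discovery rate of 0.05. The shift of reads, the extension size and the versions are not given in the sources used here. Fold enrichment, as the authors deposited it, is the ratio between summit pileup and local background. Each peak's −log10 p-value and −log10 q-value were deposited too. Fold changes across libraries were not formed from them, since a deeper library gives more peaks.

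Intervals of the 10 lists that overlapped by at least 1 bp were merged, and distances were taken from the nearest start site of the gene in GENCODE M21, upstream on the gene's strand being negative in the figures. Ranks of fold enrichment within a library (lowest, and tied, where there was no peak) became normal scores, and limma 3.58.1 (R 4.3.3) fitted a mean for each group over 70627 regions or 14979 promoters (the region nearest a start site, within 3 kb), with Benjamini-Hochberg adjustment at 0.05. The script was tested on simulated data, in which 200 of 70627 regions were raised by 1.5 units, far fewer than were called here. The test recovered 58% of them in the WT comparison and 27% in the p27KO comparison. A region that was not called, above all in p27KO, may therefore still differ. DiffBind, the study's read-based test, needs alignments, which were not used here.

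The members, the lists and the rule for named regions (own promoters, called regions, regions closed or opened in a genotype, called list genes, and the 3 promoters most like a called member promoter) were chosen with earlier results of these data known, and the AP-1 motif count was added after the values were seen. Replicate numbers came from the titles. The correlation of deviations between libraries with the same number was between -0.141 and 0.065. Between WT PRO and WT DIFF it was 0.057, 0.065 and 0.033 for the same number and -0.051 to -0.005 for unlike numbers. In p27KO, with 2 libraries per group, deviations mirror each other, so -0.141 is a single value. The numbers were not taken as pairs, although these values cannot show that the libraries are unpaired. Counts with a replicate block are given below. P-values measure the spread between these libraries. Coordinates count from 1. Sequences were read from the RefSeq GRCm38.p6 genome.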

Additional observations from a re-analysis of the deposited data

How the results depend on the processing

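With a peak required in all 10 libraries, 59 member regions remained. Of these, 5 were called between WT PRO and WT DIFF and 2 in p27KO, beside 12.9% and 6.33% of all regions so filtered. That filter leaves out every region that lacks a peak in any library. Without that filter, 7 member regions were called in WT and 0 in p27KO within 25 kb of the genes. Within 100 kb the counts were 20 and 10. The numbers tested in these windows are not given, so the counts cannot be set against the 19.2% and 12.3% of all regions. Leaving out 1 library gave 6 to 10 regions in WT. Of all regions, 14.4% (without WT DIFF replicate 1) to 16.9% (without WT DIFF replicate 3) were called in the fits without a WT library. The Jund promoter call, the 1 called promoter in WT, became 0 with the spread estimated over all regions, with regions having a peak in at least 2 libraries, with only the groups compared, with a replicate block and in each fit that left out 1 library (0 to 0); the cause was not tested. Ranked by -log10 p-value, the Jund promoter was not called in WT (0.41, limma adjusted p = 0.0683), and Atf3 was the 1 promoter called in each genotype. Of the 16 alternatives tried for single promoters, 14 lost the Jund call. With a replicate block, 13 member regions were called in WT and 6 in p27KO, and 0 promoters in WT; a block with the p27KO DIFF numbers crossed gave 12, 6 and 0. The interaction and the genotype comparisons stayed at 0 calls for members under every alternative run.

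In the top 57000 peaks of each list, 2 regions were closed and 3 opened in WT, and 5 closed and 7 opened in p27KO. The excess of closed over opened member regions in the full lists was thus not seen in lists of equal length. Over the genome, closed regions also outnumbered opened ones in the full lists (4.32% against 1.86% in WT, 10.9% against 3.32% in p27KO). Without 1 library, 6 to 15 were closed and 1 to 2 opened in WT, and 13 to 26 closed and 2 to 3 opened in p27KO. Shares over all regions are not given for these alternatives, so the counts are not read as a result about the members. The DIFF minus PRO difference in AP-1 motif share was -3.20 to -2.89 points without 1 library.

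Of 702 values of single regions and promoters under alternatives, 600 stayed on their side of the threshold with the same sign, 84 lost a call, 3 gained one and 15 changed sign. Uncalled promoter differences close to 0 changed sign. Ranked by -log10 p-value they were -0.07 for Fosl2, -0.16 for Jun and -0.15 for Batf3 in WT, and -0.0 for Fosb, -0.23 for Jun and -0.02 for Junb in p27KO. Without 1 library they ran in WT from -0.06 to 0.19 for Fosl1 and from -0.1 to 0.12 for Batf3, and in p27KO from -0.06 to 0.09 for Jun, from -0.05 to 0.14 for Junb and from -0.04 to 0.21 for Batf3.

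Read depth is unknown, and a peak missing from a list is not a measured absence, which limits the presence counts.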
